A study of Mus musculus with 55 samples.

Results

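The cytoplasmic ribosomal protein genes were followed across sex, estrous stage and Cnih3 genotype in the mouse dorsal hippocampus. Members were the protein-coding genes whose symbol began with Rpl or Rps and a digit. Names beginning Rps6k (ribosomal S6 kinases) and names containing -ps (pseudogenes) were left out, as were genes that did not exceed 1 CPM (a read count scaled to the same total in every library) in at least 10 of the 55 libraries. Of 83 genes that matched by name, 79 passed, of 16168 genes tested and 55487 genes in the count table. They comprised 46 Rpl genes, which encode proteins of the large (60S) subunit, and 33 Rps genes, named for the small (40S) subunit. The 4 that did not pass were Rpl3l, which exceeded 1 CPM in 1 library, and Rpl39l, Rpl10l and Rps23rg1, which exceeded it in none. By its name Rps19bp1 is a binding partner of Rps19 and not a ribosomal protein, but the rule kept it.

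Each ribosome carries 1 copy of nearly every one of these proteins, and a cell has to make them in matched amounts. Their mRNAs are short, abundant and stable, and most begin with a run of pyrimidines at the 5′ end, the terminal oligopyrimidine (TOP) tract, through which the mTORC1 kinase controls their translation. In neurons, ribosomal protein mRNAs and ribosomes are found in dendrites and axons as well as in the cell body, and local translation is tied to synaptic plasticity.

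RNA was sequenced from the dorsal hippocampus of adult C57/BL6j mice of which some were wild type (WT) and others carried a knock-out (KO) of Cnih3, with 1 mouse per library. The KO mice lacked an exon of this gene, an auxiliary subunit of AMPA-type glutamate receptors, in all cells. WT mice comprised metestrus (n = 4), diestrus (n = 6), proestrus (n = 5) and estrus (n = 7) females and males (n = 5). KO mice comprised metestrus (n = 5), diestrus (n = 6), proestrus (n = 4) and estrus (n = 6) females and males (n = 7). Stage was read from vaginal cytology, no group received a treatment, and ages ran from 10.86 to 23.71 weeks. The study lists 11 of the 27 WT mice with Cnih3 x B6 parents and the others with other matings, so parentage differed among WT mice. RNA was taken from the supernatant of a detergent lysate after a slow spin, which leaves most nuclei behind, and was copied from poly-A tails.

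Depth ran from 25881295 to 63547098 counts per library, with a median of 53384170. Cnih3 was read in every library at 19.4 to 58.5 CPM. It was 0.34 ± 0.08 (SE) lower on the log2 scale in all KO than in all WT mice (limma, Benjamini-Hochberg FDR = 0.00692), but the count covered exons outside the deletion and did not check it. The tissue label was met by markers of hippocampal excitatory neurons, of which all 8 were expressed. Choroid plexus markers were uneven, summing to 16.7 to 2125 CPM, with a count of 0 in some libraries for Aqp1, Folr1 and Slc4a5. Of the pituitary markers, Lhb was at 0 in every library and Cga and Pitx1 in some. The others were read in every library and were uneven. Prl ran from 5 to 6375 counts, Gh from 10 to 5461, Pomc from 120 to 1957 and Tshb from 4 to 84. Bulk counts cannot tell fewer cells of a type from less RNA per cell. Libraries from WT proestrus mouse 8_2 and KO male 2590 received quality weights under 0.3 in the model and are given separately where results rest on them.

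Start sites are shown first because the TOP tract is the sequence these genes are known for. RefSeq start regions of build GRCm38.p6 were available for 60 of the 79 members. A run beginning with C exactly at the annotated start and followed by at least 4 bases that were C or T on the gene's own strand was present in 13 members (21.7%), against 813 of 27025 genes (3.01%). A run of the same kind beginning anywhere from 5 bases before to 15 bases after the start was present in 37 members (61.7%) and in 9083 of all genes (33.6%). In the 30-base windows below, written 5′ to 3′ from 10 bases before the annotated start, capitals mark the run at the start. Rps6 encodes the S6 kinase substrate, Rpl38 is known from patterning of the mouse axial skeleton, and Rpl15 had the longest run. Rps21 and Rps10 were called in comparisons described later, and Rps27rt is an intronless copy of Rps27.
Rps6: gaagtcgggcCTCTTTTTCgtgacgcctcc
Rpl38: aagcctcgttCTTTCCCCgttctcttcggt
Rpl15: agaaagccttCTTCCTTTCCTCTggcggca
Rps21: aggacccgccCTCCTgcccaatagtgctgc
Rps10: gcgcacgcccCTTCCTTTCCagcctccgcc
Rps27: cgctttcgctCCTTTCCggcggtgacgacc
Rps27rt: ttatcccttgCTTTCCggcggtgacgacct
Rpl4 and Rps25, which carried many of the results, had no run exactly at the annotated start.
Rpl4: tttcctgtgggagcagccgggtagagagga
Rps25: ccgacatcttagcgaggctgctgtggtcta

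The windows lay at chr4:86857348-86857377 (Rps6, minus strand), chr11:114668570-114668599 (Rpl38, plus), chr14:18270967-18270996 (Rpl15, minus), chr2:180257369-180257398 (Rps21, plus), chr17:27635225-27635254 (Rps10, minus), chr3:90213629-90213658 (Rps27, minus), chr9:114982720-114982749 (Rps27rt, minus), chr9:64173377-64173406 (Rpl4, plus) and chr9:44407704-44407733 (Rps25, plus). Each window covers the annotated promoter edge and the first bases of the transcript. Annotated starts can differ from the start used in a tissue, and no start was measured here. The 79 genes were spread over 19 chromosomes, with 13 on chromosome 7 and 4 on the X chromosome (Rpl10, Rpl36a, Rpl39 and Rps4x).

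Levels were compared between genes as median CPM per kilobase of transcript. Rpl3, which lies beside the peptidyl transferase centre, was highest at 1234, followed by Rpl13 at 1104 and Rps14 at 1019. At the other end stood Rps10 at 2.90, Rpl24 at 3.03 and Rpl36al at 3.15. These low levels were tied to how reads were assigned. The gene table held uniquely aligned reads, and the estimated transcript counts gave 37.5 times as many reads to Rps10, even with some of its coding transcripts missing, 70.4 times as many to Rpl24 and 12.1 times as many to Rpl36al. The same ratio was 8.22 for Rpl13a, 5.30 for Rpl23a and 2.40 for Rps27rt, so the levels of these members, which share sequence with other copies, are uncertain. The genome table listed 305 ribosomal protein pseudogenes, of which 127 passed the filter.

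Several members are pairs of a canonical gene and a paralog. In unique reads, Rpl22 stood at 76.2 CPM per kilobase and Rpl22l1, which can take its place in the large subunit, at 131. That order rests on the annotated lengths used, 2051 bases for Rpl22 and 552 for Rpl22l1. Before division by length the median CPM was 156 for Rpl22 and 72.3 for Rpl22l1. Rps27 stood at 888, Rps27l, a p53 target, at 76.6 and Rps27rt at 78.95. Rpl7 stood at 434 and Rpl7l1, a relative of Rpl7, at 38.8. Rpl36a stood at 273 and Rpl36al at 3.15. The order or the gap changed with the estimated transcript counts for the pairs with a shared sequence. On that table's own CPM per kilobase, Rps27rt stood at 664 and Rps27 at 204, the reverse of the unique reads, and Rpl36a stood at 228 and Rpl36al at 130.

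The 79 genes together took 1.98 to 3.99% of all gene counts, with a median of 2.49%. The mean share was highest in KO proestrus, at 2.78% ± 0.38 (SD, n = 4), and WT diestrus, at 2.75% ± 0.48 (n = 6). It was lowest in KO metestrus, at 2.29% ± 0.21 (n = 5), and KO estrus, at 2.29% ± 0.13 (n = 6). The group ranges overlapped in all of these. The library of WT proestrus mouse 8_2 stood apart at 3.99%, against 2.30 to 2.60% in the other 4 of its group, whose mean was 2.41% against 2.73% with it. The rank of KO proestrus rested on mouse 14_2, at 3.31% against 2.48 to 2.80% in the others. Without it that mean was 2.61%, below WT diestrus. Gene by gene and with all mice included, the group with the highest mean was KO proestrus for 44 members, WT diestrus for 25, WT proestrus for 8 and WT estrus for 2. The lowest was KO metestrus for 46 members and KO estrus for 28. The gap between the highest and the lowest group mean was small, with a median of 0.35 on the log2 scale and a range of 0.22 to 0.80.

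**Figure D1:**
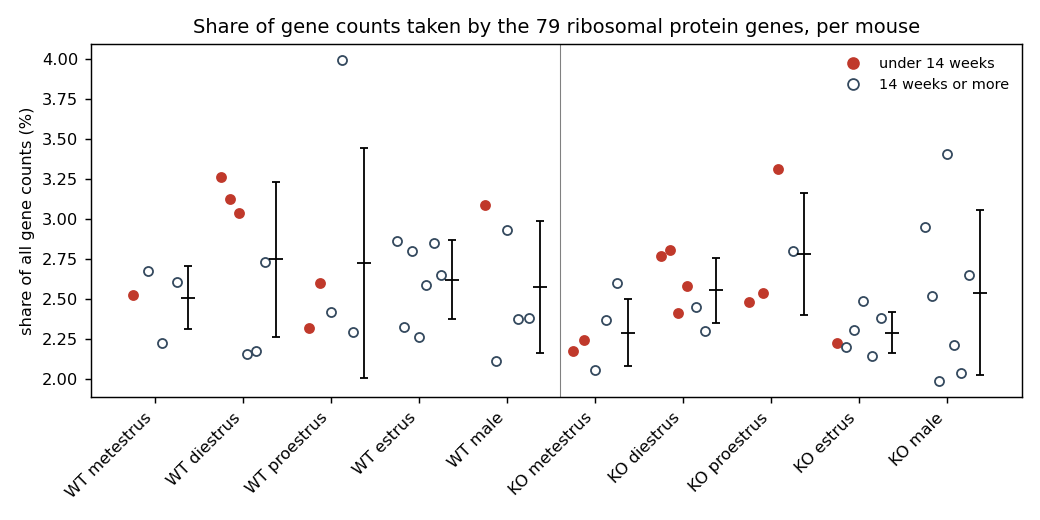
Percentage of all gene counts taken by the 79 ribosomal protein genes, with 1 point per mouse in the 10 groups on the horizontal axis, filled points for mice under 14 weeks, and bars for the group mean and SD. The 3 WT diestrus mice under 14 weeks sit at 3.04 to 3.26%, above the other 3 at 2.16 to 2.73%, and WT proestrus mouse 8_2 is the highest at 3.99%.

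The members moved together from mouse to mouse. After each group mean was removed, the median correlation over 3081 pairs of members was 0.933 across the 55 mice, with a range of -0.535 to 0.994, and 97.4% of pairs were above 0. Of the 79 members, 75 correlated above 0.5 with the mean of the others, and the exceptions were Rps2 (-0.45), Rpl7l1 (0.16), Rps19bp1 (0.22) and Rps10 (0.36). These points share libraries and depth, so the correlations describe the libraries and carry no test. Without mouse 8_2 and mouse 2590 the median was 0.900 over 53 libraries and the count stayed at 75. The spread within groups, a median SD of 0.254 over the members, was near the 0.267 over all genes tested.

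**Figure D2:**
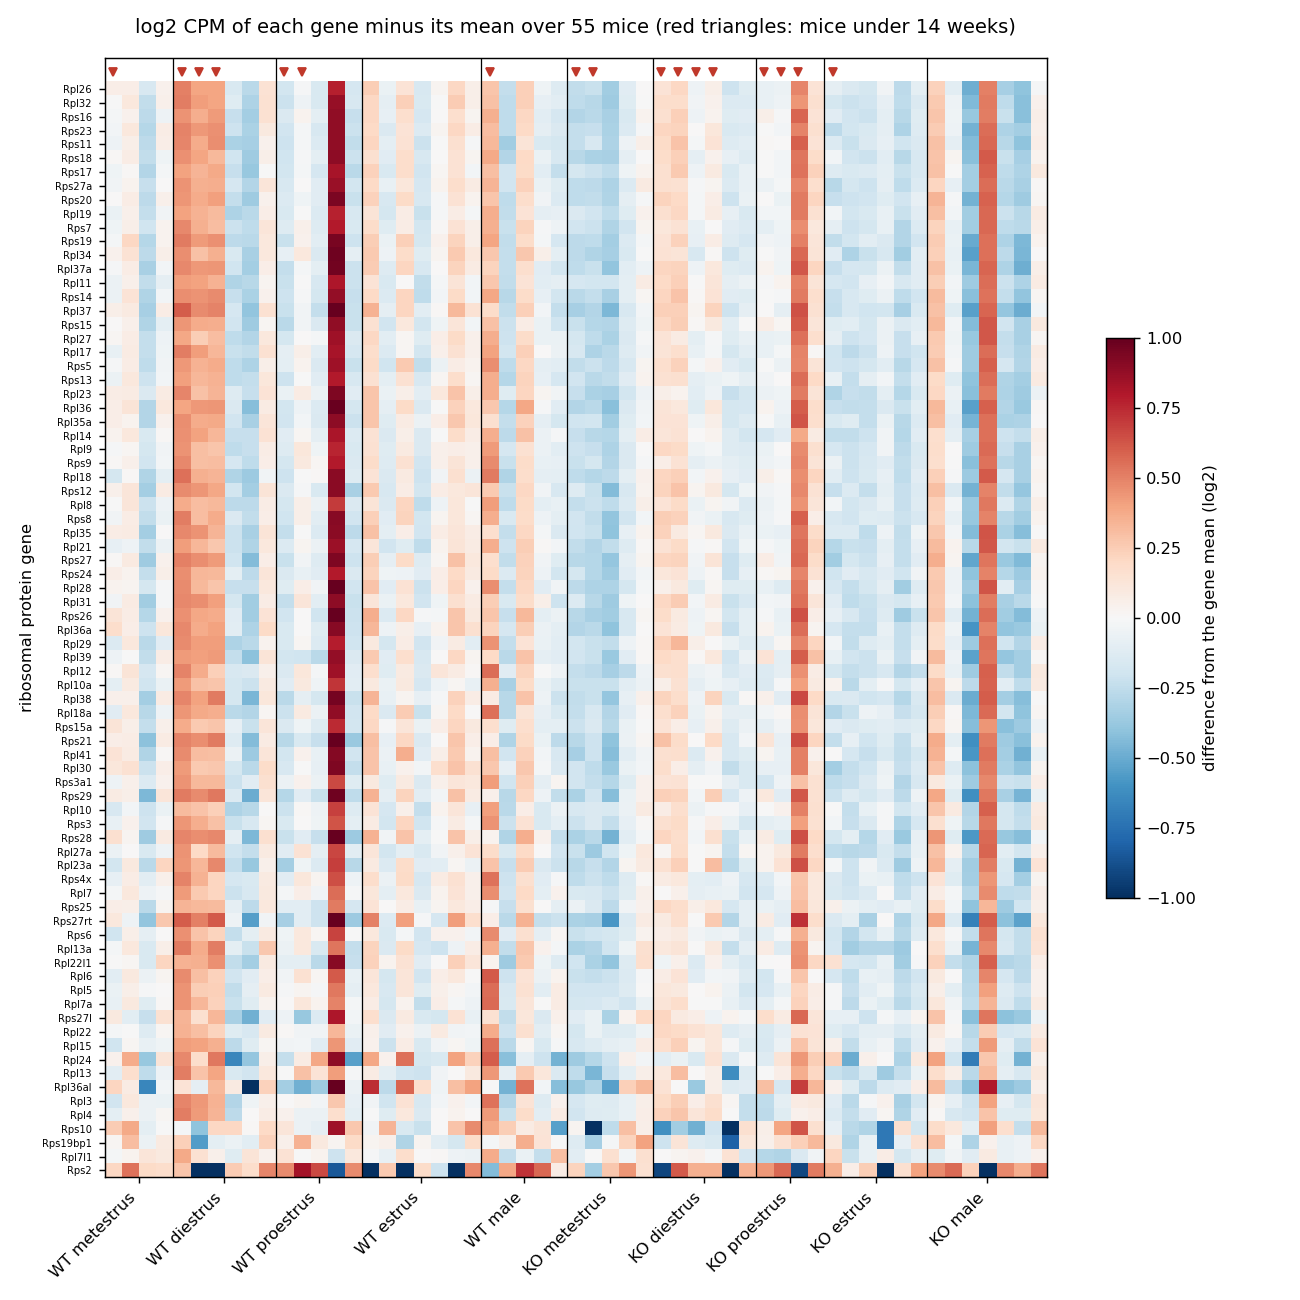
Log2 CPM of each of the 79 genes (vertical axis) minus its mean over 55 mice, with 1 column per mouse arranged by group (horizontal axis), colour limited to 1 in either direction, and triangles over mice under 14 weeks. Nearly all genes rise and fall together by column, with WT proestrus mouse 8_2 the darkest red, and Rps2 in the bottom line goes its own way.

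Rps2, a 40S protein near the mRNA entry channel, was the most variable member, with an SD within groups of 0.737. Its log2 CPM was 5.88 to 6.92 in 11 libraries and 7.34 to 8.60 in the other 44. The same 11 libraries stood lower in the transcript counts, which held some but not all of its coding transcripts, at 6.58 to 7.54 against 7.84 to 9.24. They came from 7 of the 10 groups and included mouse 8_2, KO male 2590 and KO proestrus mouse 14_2, the 3 libraries with the highest member share. Rps2 was not called in the comparisons between whole groups, and was called in 1 comparison of young mice given below.

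Diestrus was compared with estrus first, since both are defined by cytology in mice of the same sex. Rpl4, which lines the exit tunnel of the large subunit, was the member with the smallest FDR in both genotypes. In WT diestrus it lay between 10.16 and 10.93 log2 CPM with a median of 10.63 (n = 6), and in WT estrus between 10.28 and 10.53 with a median of 10.42 (n = 7). The ranges overlapped, and 3 of the 6 diestrus mice exceeded every estrus mouse. In KO diestrus it lay between 10.18 and 10.70 with a median of 10.57 (n = 6), and in KO estrus between 10.12 and 10.44 with a median of 10.29 (n = 6). There, 4 of the 6 diestrus mice exceeded every estrus mouse. The log2 fold-change of Rpl4 was 0.28 ± 0.08 (SE, FDR = 0.0123) in WT and 0.32 ± 0.08 (FDR = 0.00168) in KO mice.

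In WT, 6 of 79 members (7.59%) were higher in diestrus than in estrus and 0 were lower, while 9.05% of all genes were called higher and 13.1% lower. The share of members called was therefore no larger than that of all genes. All 6 belong to the large subunit: Rpl4, Rpl3 (0.29 ± 0.09, FDR = 0.0183), Rpl13a (0.35 ± 0.11, FDR = 0.0175), Rpl13, Rpl15 and Rpl7a. Rpl13a is known for a role in silencing inflammatory transcripts outside the ribosome. The direction was shared widely, with 75 of 79 members above 0 against 49% of all genes, and a median log2 fold-change of 0.18 against -0.01. Rps6 was 0.21 ± 0.09 (FDR = 0.0739) and Rpl5, which carries the 5S RNA into the large subunit, was 0.18 ± 0.08 (FDR = 0.0916).

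In KO mice, 19 of 79 members (24.1%) were higher in diestrus than in estrus and 0 were lower, against 11.3% of all genes called higher and 19.3% called lower. These were 13 of 46 Rpl and 6 of 33 Rps genes. Rpl22, a large subunit protein with an RNA-binding role in T cell development, was 0.25 ± 0.07 (FDR = 0.00607) higher, and Rpl3 was 0.28 ± 0.09 (FDR = 0.0116) higher. Over the members the median was 0.24, with 77 of 79 above 0 against 48.7% of all genes, and Rps10 was at -0.19 ± 0.18 (FDR = 0.406). In the class of short, abundant genes given above, the median was 0.18 over 305 other genes and 0.24 over 45 members. In the tests of whether diestrus against estrus, proestrus or male differed between genotypes, limma called 0 members and 0% of all genes. At an unadjusted p under 0.05 there were 0, 17 and 0 members (0%, 21.5% and 0%), against 2.6%, 12.8% and 4.29% of all genes.

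Markers of other cells and nuclear RNAs moved in the same stage comparisons. Of 9 nuclear long non-coding RNAs, 6 were lower in diestrus than in estrus in WT and 6 in KO mice. Their summed level was 531 to 3543 CPM in WT diestrus and 2797 to 4122 CPM in WT estrus, and 666 to 3941 CPM in KO diestrus and 2446 to 3845 CPM in KO estrus. Of 14 mature oligodendrocyte markers, 7 in WT and 10 in KO mice were lower in diestrus, with sums of 3042 to 5396 against 3962 to 5617 CPM and of 2946 to 4844 against 3638 to 5999 CPM. In diestrus against proestrus 10 of the 14 were lower in WT and 11 in KO mice, and in KO diestrus against male 12 were lower, beside 6 of 7 microglia markers. The part of these in the members' differences was not tested.

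Against proestrus, WT and KO diestrus gave different lists. In WT, 6 of 79 members (7.59%) were higher in diestrus and 0 lower, against 2.67% and 7% of all genes. Rps25, a 40S protein used in internal ribosome entry, lay between 8.40 and 9.01 log2 CPM with a median of 8.88 in WT diestrus (n = 6), and was 8.46, 8.50, 8.56, 8.56 and 9.18 in WT proestrus. Mouse 8_2 held the highest proestrus value and exceeded every diestrus mouse. With 8_2 weighted down in the model, the log2 fold-change of Rps25 was 0.33 ± 0.10 (FDR = 0.0344), and Rpl4 (0.30 ± 0.09), Rps21 (0.49 ± 0.15), Rpl13a (0.41 ± 0.13), Rps28 (0.48 ± 0.16) and Rpl37 (0.45 ± 0.15) were also called. The members' median was 0.29, against -0.03 over all genes. In the class of short, abundant genes given above, it was 0.23 over 305 other genes and 0.32 over 45 members.

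In KO, 3 of 79 members (3.80%) were higher and 1 (1.27%) lower in diestrus than in proestrus, where 14.9% and 19.4% of all genes were called. Their median was 0.00. Rps10, a protein of the 40S head, was 0.33, 0.78, 0.91, 1.04, 1.20 and 1.56 log2 CPM in KO diestrus and 1.45, 1.55, 1.79 and 2.02 in KO proestrus. Its groups overlapped by 1 diestrus mouse, and its log2 fold-change was -0.67 ± 0.18 (FDR = 0.00248). Its count rests on the few reads that aligned to it alone. Rpl7l1 (0.25 ± 0.07, FDR = 0.00627), Rpl4 (0.28 ± 0.08, FDR = 0.00679) and Rpl3 (0.23 ± 0.09, FDR = 0.0442) were the 3 higher members.

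**Figure D3:**
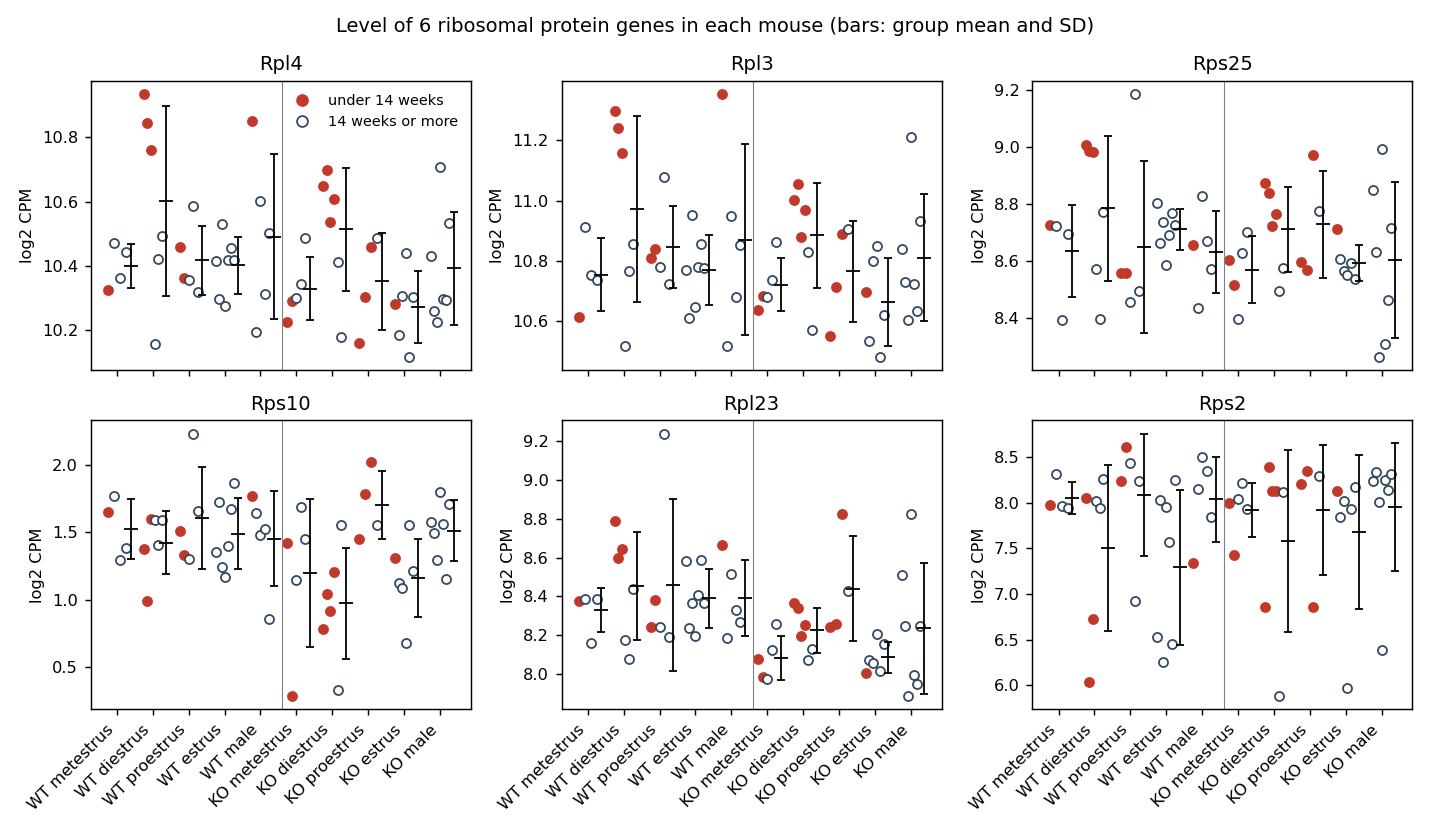
Log2 CPM of Rpl4, Rpl3, Rps25, Rps10, Rpl23 and Rps2 on the vertical axes, with 1 point per mouse in the 10 groups, filled points for mice under 14 weeks, and bars for group mean and SD. In Rpl4 the 3 young WT diestrus mice (10.76 to 10.93) and the 4 young KO diestrus mice (10.54 to 10.70) lie above the older diestrus mice of their genotype, while Rps2 splits into libraries under 7 and libraries over 7.34.

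Against males, KO diestrus mice had 17 of 79 members (21.5%) higher and 1 (1.27%) lower, beside 10.7% and 18% of all genes. Rpl22 was 0.21 ± 0.06 (FDR = 0.0105) and Rpl4 0.23 ± 0.07 (FDR = 0.0108) higher, and Rps10 was 0.51 ± 0.16 lower (FDR = 0.0116). Of the 4 X-linked members, Rpl36a (0.28 ± 0.10, FDR = 0.0311) and Rpl39 (0.29 ± 0.11, FDR = 0.0383) were called. Rps4x stood at 0.11 ± 0.08 (FDR = 0.304) and Rpl10 at 0.09 ± 0.08 (FDR = 0.435). In WT diestrus against male, limma called 0 members, beside 0.068% of all genes, and 2 members (2.53%) had an unadjusted p under 0.05, against 16.2% of all genes. The median over members was 0.18 there.

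Metestrus gave the mirror of these differences. KO metestrus had 3 of 79 members (3.80%) lower than KO diestrus and 0 higher, beside 2.25% and 8.2% of all genes, and it shared the diestrus mice with the comparisons above. These were Rpl22 (-0.24 ± 0.07, FDR = 0.0178), Rpl4 (-0.26 ± 0.08, FDR = 0.0249) and Rpl37 (-0.41 ± 0.13, FDR = 0.0309). Against KO proestrus, only Rpl7l1 was called in KO metestrus, 0.27 ± 0.08 higher (FDR = 0.0361), 1.27% of members beside 2.86% of all genes called higher and 1.5% called lower. 

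The other comparisons gave 0 called members in limma. In WT metestrus against diestrus, proestrus, estrus and male, limma called 7.24%, 0.767%, 0% and 0.0309% of all genes. At an unadjusted p under 0.05 there were 35, 0, 1 and 0 members (44.3%, 0%, 1.27% and 0%), against 26.9%, 13.4%, 4.36% and 4.69% of all genes. In WT proestrus against estrus and male and WT estrus against male, 6.82%, 0.0309% and 0.0495% of all genes were called. There, 11, 0 and 1 members (13.9%, 0% and 1.27%) had an unadjusted p under 0.05, against 22.1%, 3.77% and 7.95% of all genes. In KO metestrus against estrus and male and KO estrus against male, 0%, 0.359% and 7.66% of all genes were called. No member reached an unadjusted p under 0.05 in these 3 in limma, against 8.45%, 12.7% and 23% of all genes. In KO proestrus against estrus and male, 0.507% and 0.315% of all genes were called, and 35 and 26 members (44.3% and 32.9%) had an unadjusted p under 0.05, against 19% and 18.2% of all genes. The members' medians were furthest from 0 in KO proestrus against estrus (0.24), in KO proestrus against male (0.20) and in WT metestrus against diestrus (-0.23).

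**Figure D4:**
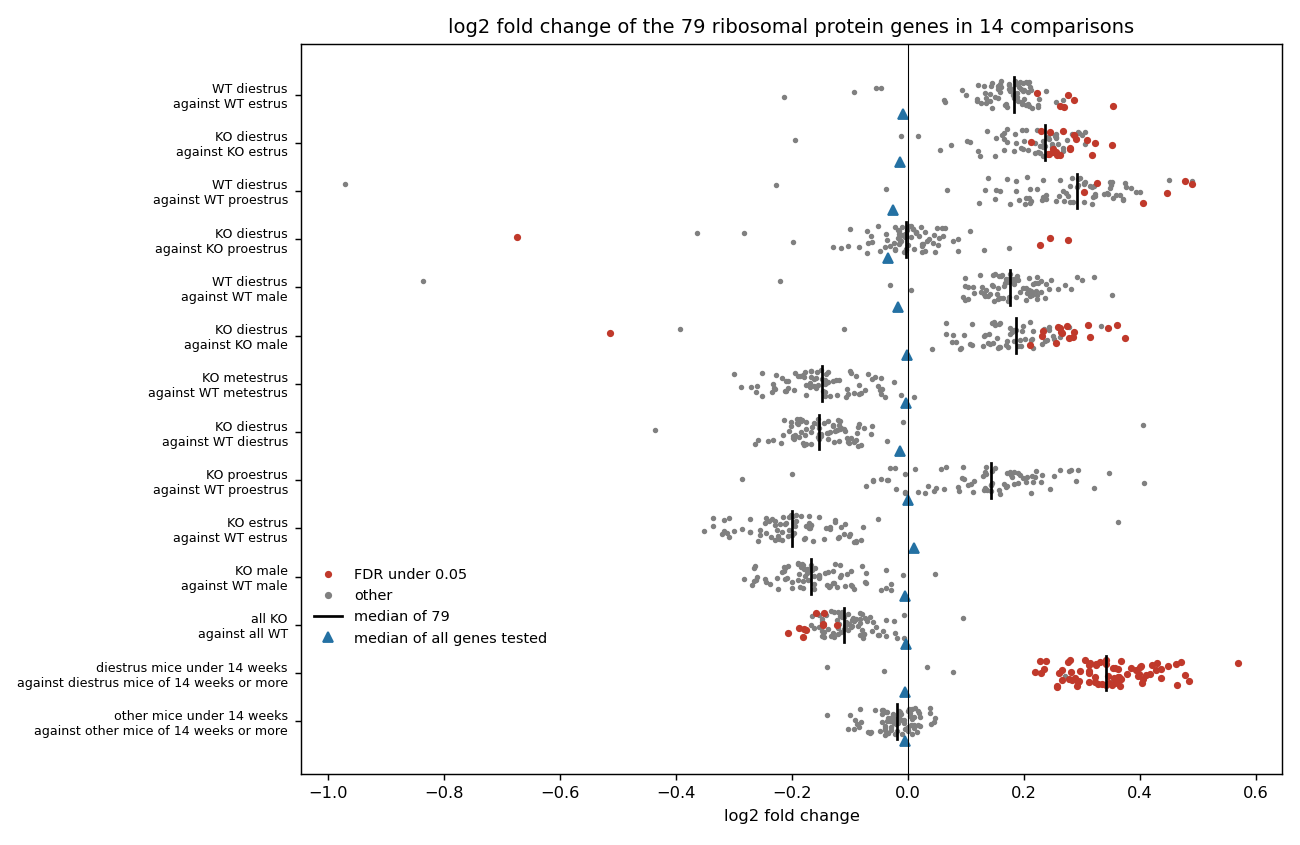
Log2 fold-change (horizontal axis) of the 79 genes in 14 comparisons (vertical axis), with 1 point per gene, red points at FDR under 0.05, a black line at the members' median and a triangle at the median of all 16168 genes. Points shift to the right in diestrus against estrus, to the left in KO against WT except in proestrus, and furthest to the right in diestrus mice under 14 weeks against older diestrus mice (median 0.34).

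These stage calls were few and depended on the test. In WT diestrus against estrus and proestrus and KO diestrus against estrus and male, edgeR's quasi-likelihood test, DESeq2 and voom without quality weights each called 0 members. At an unadjusted p under 0.05 these tests held 0 to 4 members. The calls also depended on which diestrus mice were included. Without the 7 diestrus mice under 14 weeks, 0 members were called in diestrus against estrus, proestrus or male in either genotype, with 0 to 4 at an unadjusted p under 0.05. These called and unadjusted counts are given without the share of all genes in the same fits. They therefore do not show a change particular to the members. Without the 5 diestrus mice of 14 weeks or more, 73 members were called higher in WT diestrus than in WT estrus, beside 23.3% of all genes, and 56 in KO diestrus than in KO estrus, beside 18.6%.

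Single mice moved the same counts. The share of all genes called in each of these fits is not set beside them. The counts therefore show only how calls depended on single mice, and not a change particular to the members. The count for WT diestrus against estrus was 0 without mouse 548, 549 or 569 and 58, 67 and 57 without mouse 2_2, 380_4 or 8_1. Against WT proestrus it was 0 without diestrus mouse 548, 549 or 569 or proestrus mouse 2_3 or 4_1, and 73, 66, 67 and 39 without mouse 2_2, 380_4, 8_1 or 8_2. For KO diestrus against estrus it was 2 to 12 without estrus mouse 12_2 or 9_1 or diestrus mouse 532, 643, 644 or 645, and 36 and 39 without diestrus mouse 7_1 or estrus mouse 8_4. For KO diestrus against male it was 1 without male 2016, 2589 or 2591, 5 to 10 without diestrus mouse 532, 643, 644 or 7_1, and 42 to 49 without male 1950, 2128 or 2590. For KO diestrus against proestrus it was 1, Rps10, without proestrus mouse 12_4 or 12_5. For KO metestrus against diestrus it was 0 or 1 without metestrus mouse 10_1, 11_1 or 14_4 or diestrus mouse 532, 643 or 644, and 5 to 8 without diestrus mouse 2592 or 7_1 or metestrus mouse 7_2. Rpl7l1 was no longer called in KO metestrus against proestrus without metestrus mouse 10_1 or 7_2 or proestrus mouse 12_4 or 12_5.

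Age was then compared within diestrus. The split at 14 weeks was chosen with earlier results of these data known, and the FDRs do not allow for that choice. The 7 mice under 14 weeks (10.86 to 13.86 weeks; 3 WT, 4 KO) were set against the 5 of 14 weeks or more (16.29 to 23.43 weeks; 3 WT, 2 KO), with genotype in the model. Rpl4 was 10.84, 10.76 and 10.93 log2 CPM in the young WT mice 548, 549 and 569, and 10.16, 10.42 and 10.49 in the older WT mice 2_2, 380_4 and 8_1. It was 10.61, 10.70, 10.65 and 10.54 in the young KO mice 532, 643, 644 and 645, and 10.41 and 10.18 in the older KO mice 2592 and 7_1. No young mouse overlapped an older one. Rpl22 was 7.52 to 7.75 in the young mice and 7.24 to 7.50 in the older ones, also without overlap.

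Of the 79 members, 73 (92.4%) were higher in the young diestrus mice and 0 were lower, beside 15.5% of all genes called higher and 20.1% called lower. EdgeR's quasi-likelihood test called 46 higher and 0 lower, beside 10.1% of all genes called higher. The median log2 fold-change was 0.34 over the members and -0.01 over all genes. Both subunits took part, with 43 of 46 Rpl and 30 of 33 Rps genes higher and medians of 0.34 and 0.34. The smallest FDRs belonged to Rpl4 (0.38 ± 0.07, FDR = 4.1e-05), Rpl13 (0.46 ± 0.09, FDR = 8.18e-05) and Rpl3 (0.37 ± 0.08, FDR = 0.000352). The 6 members not called were Rpl24 (0.35 ± 0.18, FDR = 0.126), Rpl36al (0.27 ± 0.21, FDR = 0.309), Rpl7l1 (0.08 ± 0.07, FDR = 0.413), Rps19bp1 (0.03 ± 0.13, FDR = 0.867), Rps10 (-0.04 ± 0.19, FDR = 0.886) and Rps2 (-0.14 ± 0.33, FDR = 0.774).

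Members known for roles outside the ribosome or for human disease were among those called. Rpl5 was 0.26 ± 0.08 higher (FDR = 0.00617) and Rpl11 0.37 ± 0.09 higher (FDR = 0.00223). Together with the 5S RNA these proteins also bind MDM2, the regulator of p53. Rps19 (0.40 ± 0.11, FDR = 0.00459) and Rps24 (0.31 ± 0.10, FDR = 0.00962), both mutated in Diamond-Blackfan anaemia, were higher, while Rps10, mutated in the same disease, was not called. So were Rps6 (0.23 ± 0.08, FDR = 0.0283), Rpl38 (0.42 ± 0.12, FDR = 0.0059), Rpl10a (0.26 ± 0.09, FDR = 0.0221) and Rps27a, which is made as a fusion with ubiquitin (0.33 ± 0.10, FDR = 0.00768). All 4 X-linked members were higher, from Rps4x (0.24 ± 0.09, FDR = 0.0309) to Rpl39 (0.40 ± 0.12, FDR = 0.00614).

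Some paralogs were called with their canonical partner and others were not. Rpl22 was 0.29 ± 0.07 higher (FDR = 0.000645) and Rpl22l1 0.32 ± 0.11 higher (FDR = 0.0161). Rps27, Rps27l and Rps27rt were 0.46 ± 0.12, 0.31 ± 0.11 and 0.57 ± 0.15 higher (FDR = 0.00207, 0.0207 and 0.0033). Rpl36a was 0.35 ± 0.11 higher (FDR = 0.0118) while Rpl36al stood at 0.27 ± 0.21 (FDR = 0.309). Rpl7 was 0.22 ± 0.08 higher (FDR = 0.0315), the smallest difference among the members called, and Rpl7l1 stood at 0.08 ± 0.07 (FDR = 0.413). Of the members with a run at the annotated start 12 of 13 were called higher, with a median of 0.35, and of those without it 42 of 47, with a median of 0.32.

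The groups did not overlap in all 12 mice for 6 members (7.59%), Rpl3, Rpl4, Rpl15, Rpl18, Rpl22 and Rps27rt, beside 4.91% of all genes. Within WT mice alone, 74 members (93.7%) were higher in every young than in every older mouse, beside 20.7% of all genes. Within KO mice alone it was 56 members (70.9%), beside 16%. The member share of counts was 3.04, 3.13 and 3.26% in the young and 2.16, 2.17 and 2.73% in the older WT diestrus mice. In KO diestrus it was 2.41 to 2.81% in the 4 young and 2.30 and 2.45% in the 2 older mice, so these overlapped. The 3 young WT diestrus mice came from Cnih3 x B6 parents, as did 1 of the 3 older ones (8_1). With WT mice limited to those parents (39 mice in all), 9 members were called higher in young diestrus mice, beside 5.31% of all genes.

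Outside diestrus, the split at 14 weeks gave no member call, but the young mice there were 12 to 13.57 weeks old while 4 of the 7 young diestrus mice were 10.86 to 11.71 weeks old. In 10 mice under 14 weeks against 33 of 14 weeks or more from the other 8 groups, limma called 0 members, with 0 at an unadjusted p under 0.05 (15.4% of all genes), beside 0.309% of all genes called. Age class was a term added to the group means in that model. WT estrus mice and KO males included none under 14 weeks, so these groups did not inform the age difference. The members' median was -0.02. Rpl4 lay between 10.16 and 10.85 log2 CPM with a median of 10.31 in the 10 young mice, and between 10.12 and 10.71 with a median of 10.36 in the 33 older mice. The difference itself, the age contrast in diestrus minus that in the other groups, was called for 54 members (68.4%), all positive, beside 15.6% of all genes called positive and 21% negative. The smallest FDR was that of Rpl4, at 0.47 ± 0.08 (FDR = 2.82e-05). Like the split at 14 weeks, this comparison and the next pair were chosen with results of these data known.

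Diestrus mice under 14 weeks were also compared with other mice under 14 weeks, whose ages only partly overlapped as given above. Of the 79 members, 63 (79.7%) were higher and 1, Rps2 (-0.73 ± 0.30, FDR = 0.037), was lower in diestrus than in the other groups under 14 weeks, beside 21.4% and 27.1% of all genes. The nuclear long non-coding RNAs (6 of 9) and oligodendrocyte markers (11 of 14) were lower here too. The members' median was 0.25, and Rpl4 was 0.38 ± 0.06 higher (FDR = 1.88e-07). In the 3 diestrus mice that were not younger than all the others (548, 549 and 532), Rpl4 was 10.84, 10.76 and 10.61 log2 CPM, against 10.16 to 10.85 in the 10 other young mice. At 14 weeks or more, limma called 0 members between diestrus and the other groups, with 1 at an unadjusted p under 0.05 (1.27%, against 1.69% of all genes) and a median of -0.05, beside 0% of all genes called. The young diestrus mice were few. They were also the only mice in the series with a plain 3-digit number, such as 532, 548 and 549. The sources used here do not say what that numbering marks. Age, numbering and anything else these mice shared cannot be told apart.

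The same mice differed in much else. All 5742 genes called in the age contrast within diestrus made up 35.5% of genes tested, and the nuclear long non-coding RNAs described above were among them. Their summed level was 531 to 897 CPM in the 7 young and 2450 to 3941 CPM in the 5 older diestrus mice, with 7 of 9 called lower, including Meg3 (-2.86 ± 0.20, FDR = 3.82e-15) and Malat1 (-2.28 ± 0.21, FDR = 1.05e-11). Their part in the result for ribosomal protein genes was not tested. Outside diestrus the lowest summed levels were 836 CPM in WT male 1949 and 1352 CPM in WT male 19_1, whose Rpl4 was 10.50 and 10.85 log2 CPM, the latter the highest outside diestrus. Their member shares were 2.38% and 3.08%. The next lowest were KO metestrus mice 7_2 at 1517 CPM and 10_1 at 1543 CPM, with member shares of 2.60% and 2.05%.

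Markers of other cells moved too. Of 14 mature oligodendrocyte markers, 9 were called lower, and their summed level was 2946 to 3783 CPM in young and 3557 to 5396 CPM in older diestrus mice. Of 7 astrocyte markers, 2 were called higher, with sums of 3220 to 3558 CPM and 2132 to 3156 CPM. For excitatory neurons, 2 of 8 were higher and 4 lower, and for microglia 1 of 7 was higher and 3 lower. Of 9 choroid plexus markers only Ttr was called (3.64 ± 1.35 higher, FDR = 0.0313), with sums of 118 to 1008 CPM and 24 to 163 CPM. Blood and endothelial markers gave 0 calls of 5 each, and 0 of the 3 pituitary markers tested were called. The part of these cell markers in the result was not tested.

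Short, abundant genes shared the direction. Among genes that were not members, the median log2 fold-change in young against older diestrus mice was 0.26 for transcripts under 1 kb, 0.15 at 1 to 2 kb, -0.03 at 2 to 4 kb and -0.18 over 4 kb. The members' medians in the same classes were 0.36, 0.32, 0.29 and 0.23, from 51, 22, 5 and 1 genes. Length was that of 1 annotated transcript per gene, and the transcript used in the tissue was not measured. The 1 member over 4 kb was Rps15a, annotated at 5179 bases. The classes over 2 kb hold too few members to compare their trend with that of other genes. Of 305 other genes both under 1 kb and in the highest of 4 classes of level, 61.3% were called higher and 0% lower, with a median of 0.27. The 45 members in that class had a median of 0.36. The part of transcript length in the members' difference was not tested.

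**Figure D5:**
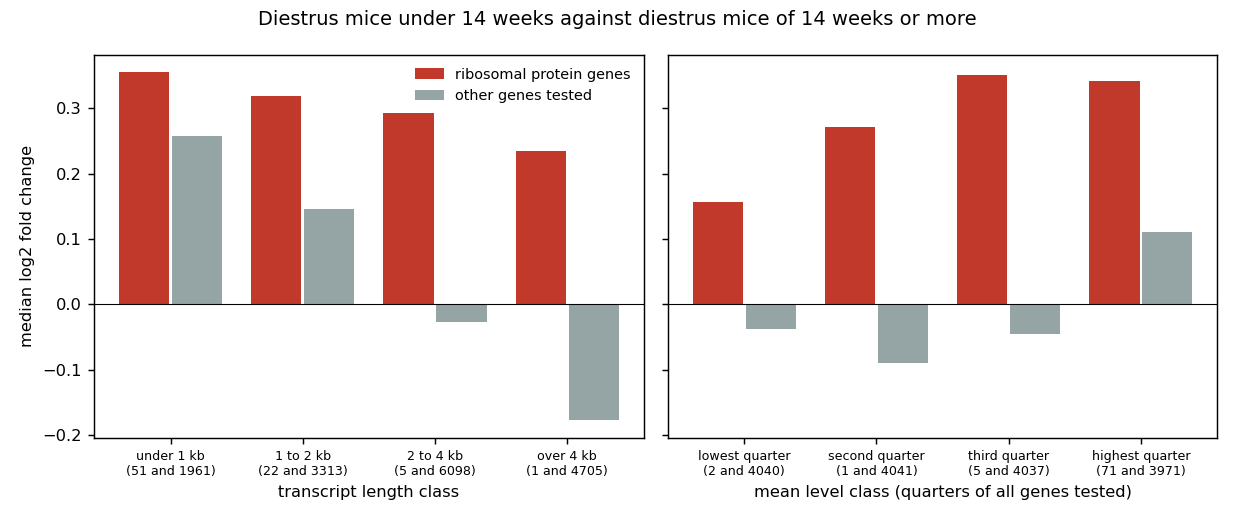
Median log2 fold-change (vertical axes) in diestrus mice under 14 weeks against older diestrus mice, by class of transcript length (left) and of mean level (right), with bars for the ribosomal protein genes and for the other genes tested and the numbers of each below. Other genes fall from 0.26 under 1 kb to -0.18 over 4 kb. The medians of the ribosomal protein genes lie between 0.23 and 0.36, with only 5 members at 2 to 4 kb and 1 over 4 kb. Length is that of 1 annotated transcript per gene, and the transcript used in the tissue was not measured.

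The rest of the translation machinery was read from gene lists in the same contrast. Of 7 ribosomal proteins with other names, 6 were higher, the stalk proteins Rplp0 (0.35 ± 0.08), Rplp1 (0.44 ± 0.11) and Rplp2 (0.27 ± 0.11) and also Rpsa, Rack1 and Fau. Of 17 translation factors, 12 were higher and 0 lower, among them the elongation factors Eef2 (0.39 ± 0.06, FDR = 3.7e-06) and Eef1a1 (0.28 ± 0.07, FDR = 0.00289) and the initiation factor subunits Eif3l (0.48 ± 0.09) and Eif3h (0.42 ± 0.08). Of 20 ribosome assembly factors, 8 were higher, such as Bop1 (0.41 ± 0.10, FDR = 0.00169). Mitochondrial ribosomal proteins, which are encoded in the nucleus, were higher in 51 of 82 with a median of 0.25, and ribosomal protein pseudogenes in 64 of 127 with a median of 0.38. Reads of pseudogenes and of their parent genes cannot always be told apart.

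Upstream regulators did not share one direction. Among 11 genes for RNA polymerase I and its factors, 4 were higher and 1, the largest subunit Polr1a, was lower (-0.36 ± 0.10, FDR = 0.00371). Of 14 mTORC1 pathway genes, Mlst8 was higher (0.26 ± 0.10, FDR = 0.0282) and Rptor (-0.30 ± 0.10, FDR = 0.0207) and Tsc1 (-0.64 ± 0.13, FDR = 7.23e-05) were lower. None of 10 ribosomal S6 kinase genes was called by limma, and their median was -0.01. Of 13 mRNAs encoded in mitochondrial DNA, only mt-Nd4l was called (0.86 ± 0.35, FDR = 0.0495).

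KO mice were compared with WT mice within each group and overall. Rpl23, a large subunit protein near the exit tunnel, gave the smallest FDR. Its log2 CPM lay between 7.88 and 8.83 with a median of 8.17 in the 28 KO mice, and between 8.08 and 9.24 with a median of 8.38 in the 27 WT mice. The ranges overlapped widely. The mean was 8.20 ± 0.23 (SD) in KO and 8.41 ± 0.24 in WT, and the log2 fold-change averaged over stages and males was -0.21 ± 0.05 (SE, FDR = 0.0048).

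Averaged over the 5 pairs of groups, 10 of 79 members (12.7%) were lower in KO mice and 0 higher, beside 1.9% and 1.5% of all genes. The 10 were Rpl23, Rpl12 (-0.18 ± 0.05, FDR = 0.0185), Rps4x (-0.16 ± 0.04, FDR = 0.0227), Rpl7 (-0.15 ± 0.04, FDR = 0.0227), Rpl36a, Rpl6, Rps3a1, Rpl30, Rpl34 and Rpl5 (-0.12 ± 0.04, FDR = 0.0492). Rpl12 sits at the base of the stalk that recruits elongation factors. Over the members the median was -0.11, and 1 of 79 was above 0 against 48.6% of all genes. Among genes both under 1 kb and in the highest of 4 classes of level, the median was -0.047 over 305 other genes and -0.115 over 45 members. Rpl11 (-0.02 ± 0.05, FDR = 0.892) and Rpl10 (-0.01 ± 0.04, FDR = 0.956) were near 0. Ribosomal proteins with other names gave 0 of 7, translation factors 0 of 17, assembly factors 3 of 20 lower and mitochondrial ribosomal proteins 4 of 82 lower. Among the cell marker lists, 1 of 8 interneuron markers was called lower and the others gave 0 calls, as did the nuclear long non-coding RNAs.

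No single group carried a called difference. In metestrus, diestrus, proestrus, estrus and males limma called 0 members, beside 0.0247%, 0%, 0.315%, 0.179% and 0.00619% of all genes. At an unadjusted p under 0.05 there were 6, 8, 6, 41 and 7 members (7.59%, 10.1%, 7.59%, 51.9% and 8.86%), against 9.01%, 8.17%, 13.7%, 11.7% and 5.23% of all genes. The median over members was -0.15 in metestrus, -0.15 in diestrus, -0.20 in estrus and -0.17 in males, each with 1 of 79 above 0, where 49.3%, 46.9%, 52.7% and 48.6% of all genes were. In proestrus it was 0.14, with 65 of 79 above 0 against 50.1% of all genes. The proestrus comparison held mouse 8_2 among 5 WT mice and mouse 14_2, with a member share of 3.31%, among 4 KO mice. Rpl23 was 8.08 ± 0.08 in KO estrus and 8.39 ± 0.15 in WT estrus (SD), the clearest of the pairs of means, and 8.44 ± 0.27 and 8.46 ± 0.44 in proestrus.

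The genotype calls also depended on the test and on mice. EdgeR's quasi-likelihood test, DESeq2 and voom without quality weights called 0 members between all KO and all WT mice, with 19, 18 and 16 at an unadjusted p under 0.05. In the main limma fit 40 members (50.6%) were at that level, against 17.1% of all genes. With WT mice limited to those of Cnih3 x B6 parents, 69 members were called lower in KO mice, beside 8.14% of all genes. The WT metestrus, proestrus and estrus groups then held 1 mouse each, and the proestrus mouse was 8_2. Without diestrus mice under 14 weeks the count was 0, with 22 at an unadjusted p under 0.05, and without the older diestrus mice it was 29, beside 2.66% of all genes. Leaving out 1 mouse gave 1 to 26. The share of all genes is not set beside the called and unadjusted counts of the other tests. It is also missing for the fit without young diestrus mice and for the counts without 1 mouse. Those counts therefore do not show a change particular to the members. The count fell to between 1 and 6 without KO mouse 10_1, 12_4, 12_5, 14_4, 2016, 2589, 2591, 532 or 645 or WT mouse 19_1, 2015, 3_1, 4_1, 5_4, 548, 549 or 569. It rose to between 16 and 26 without WT mouse 2_2, 2018, 2052, 380_4 or 8_1 or KO male 2128.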

How the data were processed

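Counts were deposited as whole reads per Ensembl gene, which the authors made by aligning paired reads to GRCm38 with STAR 2.7.9a and counting unique alignments with featureCounts 2.0.3. Estimated counts per transcript were deposited from Salmon 1.5.2, and the log2 CPM table was deposited after the authors' filter and TMM scaling in edgeR. Of the members, 47 of 79 had every coding transcript in the transcript table used here, and calls on sums over transcripts used those 47, while read ratios were computed for every member from the transcripts present. Of the counts from 1 to 10, 60.1% were even, so a count may not be a single fragment and totals may overstate the number of fragments. A set of 287 repeated identical lines was counted once, 5 ribosomal RNA genes were left out, and 1 column with no labelled sample was not used. The filter was over 1 CPM in at least 10 libraries. Log2 CPM was computed from the counts and matched the deposited log2 table within 1e-06 for 16164 genes, all 79 members included.

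Differences were tested in limma 3.58.1 (voom with sample quality weights, edgeR 4.0.16 TMM scaling, R 4.3.3), with 1 mean for each of the 10 groups over all 55 mice and Benjamini-Hochberg adjustment over 16168 genes. A gene was called at FDR under 0.05. Splits at 14 weeks added age class to groups. Interactions were contrasts of the same means. Scripts were tested on simulated data. Alternatives were DESeq2 1.42.0, the quasi-likelihood test of edgeR, unweighted voom, no filter on low counts, transcript sums, age as a covariate, WT mice limited to Cnih3 x B6 parents (from the study's mouse list), and leaving out single mice or diestrus age classes. Each group's mice were separate animals, and replicate names are mouse numbers. Genes named were 10 with known roles, X-linked members, paralog pairs, the 3 smallest FDRs in 6 comparisons, members called against the prevailing direction, and extremes of level and spread, with others named where a list needed its members. The members, lists and the 14-week split were chosen with earlier results of these data known.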

Additional observations from a re-analysis of the deposited data

Results flagged for a closer look

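Of 130 sets of values (12 members and the member share in 10 groups), 16 held a mouse separated from the rest of its group by a gap wide for the group's range. Chance alone gives about 1 in 20 for a single set. The members moved together from mouse to mouse, so 1 library can flag many sets. The 16 are therefore not independent and cannot be judged against that rate. WT proestrus mouse 8_2 accounted for 7 of them. Its member share was 3.99%, against 2.30 to 2.60% in the others. Its log2 CPM was 7.73 for Rpl22 (others 7.34 to 7.42), 9.87 for Rpl37 (8.63 to 8.83), 9.18 for Rps25 (8.46 to 8.56), 9.38 for Rps6 (8.66 to 8.81) and 9.24 for Rpl23 (8.19 to 8.38), and lower than the others for Rps2, at 6.92 (8.24 to 8.60).

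WT metestrus mouse 380_1 was low for Rpl37 at 8.54 (others 8.93 to 8.96), Rps25 at 8.39 (8.69 to 8.73) and Rpl23 at 8.16 (8.38 to 8.39). WT diestrus mouse 548 was low for Rps10 at 0.99 (1.37 to 1.60), and WT estrus mouse 5_2 was high for Rpl7l1 at 6.94 (6.69 to 6.78).

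Rps2 was low in KO estrus mouse 2593 at 5.98 (others 7.84 to 8.17), KO male 2590 at 6.39 (8.00 to 8.33) and KO proestrus mouse 14_2 at 6.86 (8.20 to 8.34), and high in WT metestrus mouse 5_1 at 8.31 (7.95 to 7.97). These mice were not left out for it.

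The difference between mice under 14 weeks and older mice was itself different in diestrus and in the other groups for 54 members in limma at FDR under 0.05.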

How the results depend on the processing

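No paired analysis was possible because the groups compared share no replicate numbers. Some mouse numbers share a first part across groups (8_1 and 8_2), but the sources used here do not say what it marks. Counts below are members called in either direction, in the order comparison by comparison, and causes were not tested. The share of all genes called in each fit is not set beside them, so they do not show a change particular to the members. EdgeR's quasi-likelihood test, DESeq2 and voom without quality weights each gave 0 in WT diestrus against estrus and proestrus, KO diestrus against estrus and male, KO metestrus against diestrus and proestrus, and all KO against all WT, and 1 in KO diestrus against proestrus. EdgeR gave 46 in young against older diestrus mice. Age as a covariate gave 1 in WT diestrus against estrus, 0 in WT diestrus against proestrus, 1 in WT proestrus against estrus, 3 in KO diestrus against estrus, 2 in KO proestrus against estrus, and 0 in KO metestrus against diestrus and KO diestrus against male. No filter on low counts gave 3 in KO diestrus against estrus, 1 in KO diestrus against male, 2 in all KO against all WT, and 0 in WT diestrus against proestrus, KO metestrus against diestrus and KO metestrus against proestrus. Transcript sums over 47 members gave 3 in KO diestrus against estrus, 3 in KO diestrus against male, 3 in all KO against all WT, and 0 in WT diestrus against estrus and proestrus and KO metestrus against diestrus and proestrus. With WT mice limited to Cnih3 x B6 parents, where the lone WT metestrus, estrus and proestrus (8_2) mice are assumed to vary like the other groups, the counts were 0 in WT diestrus against estrus, 12 against proestrus and 76 against male, 2 in WT metestrus against diestrus and 30 against proestrus, 5 in WT proestrus against estrus and 70 against male. They were 44 in KO diestrus against estrus and 35 against male, 10 in KO metestrus against diestrus, 66 in KO against WT proestrus, 69 in all KO against all WT and 9 in young against older diestrus mice. In WT diestrus against proestrus that choice turned Rps25 to -0.19, Rps21 to -0.51, Rpl37 to -0.49 and Rpl13a to -0.061 (log2). Without diestrus mice of 14 weeks or more, counts were 73 in WT diestrus against estrus, 74 against proestrus and 67 against male, 74 in WT metestrus against diestrus, 56 in KO diestrus against estrus and 40 against male, 44 in KO metestrus against diestrus, 6 in KO against WT diestrus, 2 in the genotype difference of diestrus against proestrus and 29 in all KO against all WT. Without those under 14 weeks, counts were 0 in WT diestrus against estrus and proestrus, KO diestrus against estrus, proestrus and male, KO metestrus against diestrus and all KO against all WT. Rpl13 and Rpl3 then stood at -0.017 and -0.0084 in WT diestrus against estrus, Rpl13 at -0.17 in KO diestrus against estrus, Rpl4 and Rpl3 at -0.027 and -0.030 in KO diestrus against proestrus, and Rpl22 and Rpl4 at -0.043 and -0.072 in KO diestrus against male. Leaving out mouse 8_2 and mouse 2590 together, chosen after seeing the data like the diestrus age classes in all KO against all WT, gave 49 in WT diestrus against proestrus, 3 in WT metestrus against diestrus, 38 in KO diestrus against estrus, 8 in KO metestrus against diestrus, 49 in KO diestrus against male, 1 in KO proestrus against male and 1 in KO against WT proestrus. Leaving out each mouse in turn gave 0 to 67 in WT diestrus against estrus, 0 to 73 against proestrus and 0 to 14 against male, 0 to 68 in WT metestrus against diestrus, 2 to 39 in KO diestrus against estrus, 1 to 5 against proestrus and 1 to 49 against male, 0 to 8 in KO metestrus against diestrus, 1 to 26 in all KO against all WT, and 0 to 1 in WT proestrus against estrus, KO metestrus against proestrus, KO proestrus against estrus and male, KO estrus against male, and KO against WT diestrus and proestrus. Outside diestrus only the 10 young mice were left out in turn. In young against older diestrus mice the count stayed within 1.5 times of 73 in those fits. The member share of counts moved by less than 1 SD with mitochondrial genes taken out of the total, and its WT proestrus mean was 2.41% without mouse 8_2 against 2.73% with it.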
